A study of Mus musculus with 14 samples.

Results

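Integrins are adhesion receptors made of 1 alpha and 1 beta chain, and 10 chain genes were chosen by name for description here, out of 55486 genes counted: the alpha chains Itgae (CD103), Itga1 (CD49a), Itga2 (CD49b), Itga4 (CD49d), Itgal (CD11a) and Itgav (CD51), and the beta chains Itgb1 (CD29), Itgb2 (CD18), Itgb5 and Itgb7. All 10 were found in the count table and all 10 passed the filter on low counts. RNA was counted in 14 libraries of isolated mouse CD8 T cells, all from animals heterozygous for OT-I, a transgenic T cell receptor that recognises ovalbumin. The cells were activated with antibodies to CD3 and CD28 and collected on day 8. In 3 libraries (KO) the animals were heterozygous for the tamoxifen-inducible CreERT2 and homozygous for floxed alleles of Dot1l, the gene of the histone H3 lysine 79 methyltransferase, and in 3 (WT) they were heterozygous for CreERT2 with wild-type Dot1l. Cells of both of these groups received 10 nM 4-hydroxytamoxifen on day 0. Another 8 libraries came from animals without Cre and without floxed alleles, and their cells were given 0.1% DMSO (4 libraries) or the DOT1L inhibitor EPZ-5676 (EPZ, 4 libraries) every 2 days. The inhibitor dose is labelled 10 mM in one place and 10 uM in another, and the files do not settle it. Ages were not used here. Per the library names, the libraries within a group came from different animals.

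An integrin chain reaches the cell surface only as part of an alpha-beta pair, so the partners available set which receptor a cell can show. CD103 pairs only with beta 7 and binds E-cadherin on epithelium, and CD49a pairs with beta 1 and binds collagen IV in basement membrane. Both are widely used as markers of CD8 T cells that stay in tissue, whereas alpha 4 with beta 1 or beta 7, and alpha L with beta 2 (LFA-1), serve adhesion to endothelium, entry into tissue and contact with other cells.

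Library totals ran from 5643724 to 20586093 counts. Dot1l itself was measured at 190 to 218 CPM (counts scaled to a common library total) in the libraries labelled KO and at 133 to 140 in WT, so that its count was higher, not lower, in the group labelled as deleted (log2 fold change 0.59, adjusted p = 1.34e-05). A count over the whole gene does not show whether the floxed part was lost, and KO below means the label, on which each direction given for it rests. Of the 14 libraries, 4 (2 KO and 2 WT) had Xist and Ddx3y transcripts that went against the labelled sex of the animal. Markers of CD8 T cells (Cd8a, Cd8b1, Cd3d, Cd3e, Cd3g and Trac) were present in every group, with a summed level of 1603 to 1658 CPM in KO, 2864 to 3106 in WT, 3277 to 3574 in DMSO and 2257 to 2483 in EPZ. Of the 6, 4 fell and none rose in each comparison. Of all genes tested, 20.2% fell in KO against WT and 8.31% in EPZ against DMSO. Cd8a fell by 2.60 on the log2 scale in KO (adjusted p = 4.318e-09) and by 1.06 in EPZ (adjusted p = 8.494e-06), and Cd8b1, Trac and Cd3d fell in both as well, whereas Cd3e and Cd3g were not called. Mitochondrial genes took 1.61% ± 0.184 of counts in KO, 1.21% ± 0.184 in WT (SD, n = 3 each), 1.02% ± 0.327 in DMSO and 0.869% ± 0.15 in EPZ (SD, n = 4 each). The part of these differences in the results was not tested.

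CD103 and CD49a moved in opposite directions in both comparisons. Itgae transcripts fell and Itga1 transcripts rose in KO against WT and again in EPZ against DMSO, and the beta chains Itgb1 and Itgb5 rose in both. Of the 10 chains, 6 passed the test in KO against WT, 3 higher (Itga1, Itgb1, Itgb5) and 3 lower (Itgae, Itgb7, Itga4), where 40.4% of all genes tested were called, 20.3% higher and 20.2% lower. In EPZ against DMSO 6 passed, 4 higher (Itga1, Itgb1, Itgb5, Itgal) and 2 lower (Itgae, Itgb7), against 20.2% of all genes tested, 11.9% higher and 8.31% lower. Changes of at least 2-fold were found for the same 3 chains in both, Itgae, Itga1 and Itgb5, where 9.14% of genes in the first comparison and 4.1% in the second changed by as much. The median log2 fold change of the 10 chains was 0.09 and 0.06, against -0.01 and -0.01 over all genes tested. A call is an adjusted p under 0.05 from edgeR's quasi-likelihood test with Benjamini-Hochberg adjustment over all genes, and every adjusted p below comes from that test unless another is named.

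**Figure D1:**
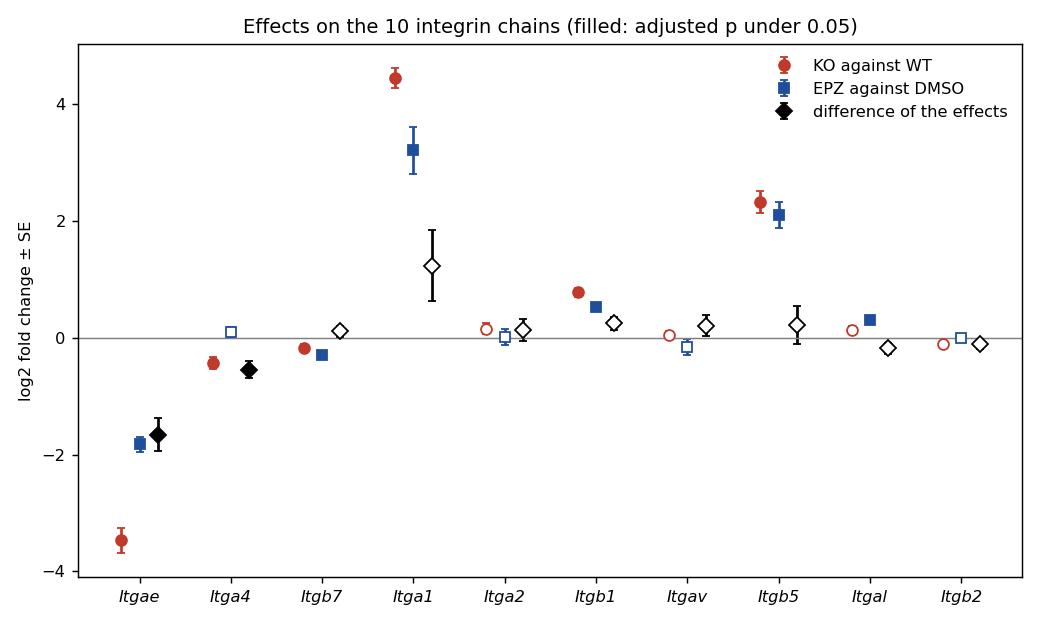
Log2 fold change ± SE of the 10 integrin chains in KO against WT (red circles), in EPZ against DMSO (blue squares) and the difference of these effects (black diamonds), with filled symbols for an adjusted p under 0.05. Itgae lies below 0 and Itga1 and Itgb5 above 0 in both comparisons, and Itgae and Itga4 alone have a filled diamond.

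CD103 had the largest fall of the integrin chains tested, in both comparisons. Itgae lies on chromosome 11 of the mm10 build (73090583 to 73147446). It was measured at 7.10, 12.5 and 13.7 CPM in the KO libraries and at 101, 170 and 113 CPM in WT. The DMSO libraries held 157, 187, 233 and 154 CPM, and the EPZ libraries 50.8, 58.9, 46.4 and 50.1 CPM. Every KO library was below every WT library and every EPZ library below every DMSO library, and KO was also below EPZ throughout.

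In KO Itgae fell by 3.47 ± 0.21 on the log2 scale (SE, adjusted p = 6.648e-08), from a mean of 128 ± 36.7 to 11.1 ± 3.5 CPM (SD, n = 3 each). In EPZ it fell by 1.82 ± 0.13 (SE, adjusted p = 1.114e-05), from 183 ± 36.9 to 51.6 ± 5.28 CPM (SD, n = 4 each). The fall under KO was the larger by 1.66 ± 0.28 on the log2 scale when the difference of the effects was itself tested over all 14 libraries (adjusted p = 0.00173). Restricting both comparisons to libraries with male transcripts, 2 per group, left falls of 3.33 (adjusted p = 2.175e-08) and 2.00 (adjusted p = 0.009053). As these are bulk samples, fewer cells with CD103 and less Itgae RNA per cell cannot be told apart, and the same holds for every chain below.

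In order of level, Itgae was highest in DMSO, then WT, EPZ and KO. The neighbouring WT and DMSO levels overlapped. WT was lower than DMSO by 0.52 on the log2 scale (adjusted p = 0.02383), a call that was lost with DESeq2 (adjusted p = 0.06455) and without WT 1, WT 3 or DMSO 3 (adjusted p = 0.1311, 0.1039 and 0.06958). These control groups differ in Cre, 4-hydroxytamoxifen, solvent and experiment, which cannot be told apart. The kinase gene Haspin lies within the span of Itgae on the other strand, and the strand setting of the counting is not given in the sources used here. Haspin was measured at 17.4 CPM in KO, 24.0 in WT, 22.9 in DMSO and 25.4 in EPZ, and its log2 fold changes were -0.48 (adjusted p = 0.003311) and 0.13 (adjusted p = 0.4244).

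The beta 7 chain, the sole partner of CD103, changed far less than CD103 did. Itgb7 (chromosome 15, 102215995 to 102231944) was measured at 551, 571 and 533 CPM in KO and at 579, 644 and 663 CPM in WT. The DMSO libraries held 675, 651, 646 and 676 CPM and the EPZ libraries 525, 490, 562 and 574 CPM. KO lay below WT and EPZ below DMSO in every library, by small margins. Its log2 fold change was -0.30 ± 0.06 (SE, adjusted p = 0.008395) in EPZ. In KO it was -0.18 ± 0.06 (SE, adjusted p = 0.04081), a call that ended without any 1 of the 3 KO libraries, WT 2 or WT 3 (adjusted p between 0.08612 and 0.152) and with a term for the sex read from transcripts (adjusted p = 0.05843). With libraries of male transcripts alone, the log2 fold changes were -0.13 (adjusted p = 0.2126) in KO and -0.22 (adjusted p = 0.3798) in EPZ.

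Alpha 4, the other partner of beta 7 and also a partner of beta 1, behaved differently in the KO and EPZ comparisons. Itga4 (chromosome 2, 79255426 to 79333123) was measured at 49.3, 48.4 and 55.0 CPM in KO and at 68.5, 80.8 and 60.4 CPM in WT. In DMSO it was at 80.7, 86.1, 99.7 and 84.6 CPM, and in EPZ at 86.2, 108, 89.2 and 93.0 CPM. The KO libraries lay below all WT libraries, while the EPZ and DMSO libraries overlapped.

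Itga4 fell by 0.43 ± 0.10 on the log2 scale in KO (SE, adjusted p = 0.004566), and its log2 fold change in EPZ was 0.11 (adjusted p = 0.4196). The difference of the effects was -0.55 ± 0.15 (SE, adjusted p = 0.02866). That call was lost on leaving out any of 8 libraries (KO 1, KO 2, WT 1, WT 2, DMSO 1, DMSO 2, DMSO 4 or EPZ 2), with an adjusted p between 0.05153 and 0.1012. Cerkl, which overlaps Itga4 on the other strand, was at 2.96 to 6.72 CPM in the group means and was not called in either comparison (adjusted p = 0.2439 and 0.1695).

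Beta 7 transcripts were in excess over those of its alpha partners in all groups, and protein was not measured. Per kb of exon, which allows levels of different genes to be compared, Itgb7 stood at 199 ± 6.94 CPM per kb in KO, 227 ± 15.97 in WT, 239 ± 5.72 in DMSO and 194 ± 13.7 in EPZ, while Itgae reached at most 39.9 ± 8.05 (DMSO) and Itga4 at most 6.72 ± 0.675 (EPZ). Of the summed level of these alpha chains per kb, Itgae made up 81.9%, 86.5% and 85.1% in the WT libraries and 30.5%, 44.1% and 43.1% in the KO libraries. Its share was 85.6%, 86.9%, 87.7% and 84.7% in DMSO, and 64.3%, 62.6%, 61.3% and 62.2% in EPZ. By transcript level per kb, Itgae was thus the more abundant alpha partner of beta 7 in WT, DMSO and EPZ. Itga4 was the more abundant in all 3 KO libraries.

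**Figure D2:**
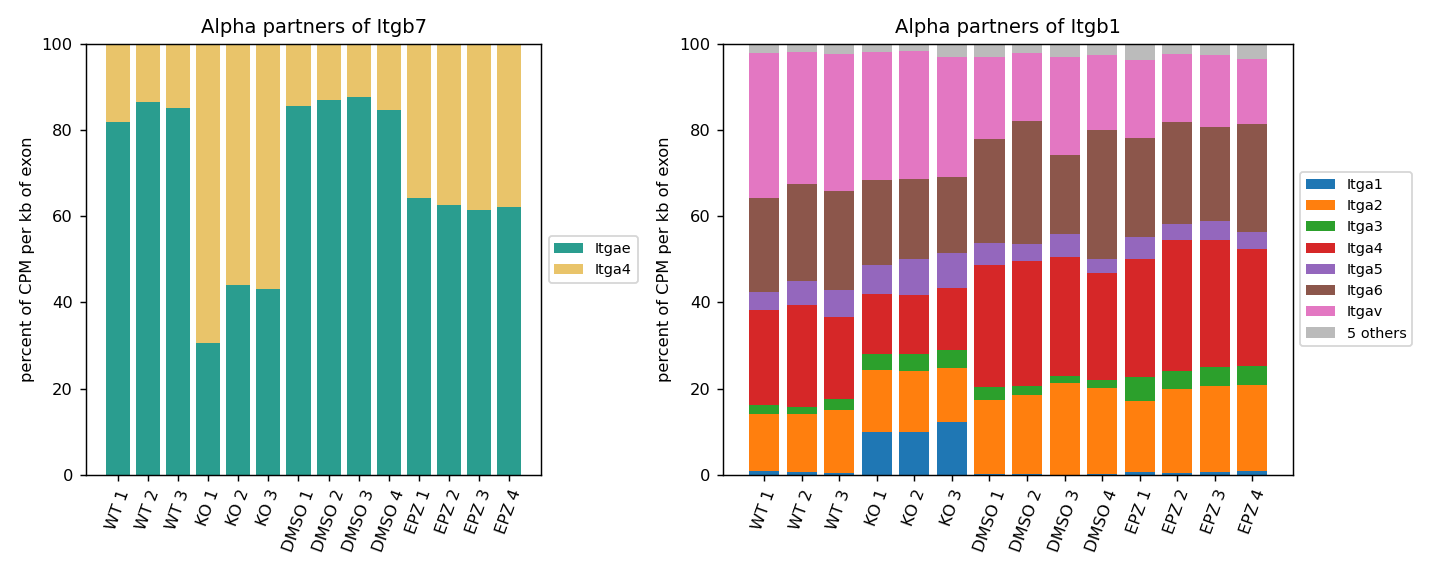
Share of each alpha chain, in percent of summed CPM per kb of exon, among the alpha partners of Itgb7 (left) and of Itgb1 (right), with 1 bar per library. The Itgae part is 30.5% to 44.1% in KO and 61.3% to 64.3% in EPZ against 81.9% to 87.7% in WT and DMSO, and an Itga1 part of 10.0% to 12.3% is visible in KO.

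CD49a was low in control cells and had the largest rise of the integrin chains tested, in both comparisons. Itga1 (chromosome 13, 114953096 to 115101964) was measured at 47.2, 47.5 and 62.6 CPM in KO and at 3.02, 2.57 and 2.06 CPM in WT. In EPZ it was at 2.17, 2.09, 2.47 and 4.36 CPM, and in DMSO at 0.192, 0.328, 0.123 and 0.516 CPM, where the 4 libraries together held 15 counts. Neither pair of groups overlapped, and the EPZ libraries lay in the range of the WT libraries or above it.

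The rise of Itga1 was 4.44 ± 0.17 on the log2 scale in KO (SE, adjusted p = 1.679e-09) and 3.21 ± 0.40 in EPZ (SE, adjusted p = 0.0003924). In pooled counts the ratio was 21.5 for KO over WT (95% interval 17.1 to 27.2, counting error only) and 9.25 for EPZ over DMSO (5.46 to 16.9). The difference of the effects, 1.24 ± 0.61, did not pass the test (SE, adjusted p = 0.2508). The control groups also differed, with WT above DMSO by 3.05 ± 0.44 on the log2 scale (SE, adjusted p = 2.86e-05). With libraries of male transcripts alone the rises were 4.33 (adjusted p = 2.096e-09) and 3.23 (adjusted p = 0.0329).

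Pelo, a ribosome rescue factor gene inside the span of Itga1 on the same strand, was at 3.84 CPM in KO and 4.77 in WT (log2 fold change -0.38, adjusted p = 0.1439), and at 4.50 in EPZ with 4.44 in DMSO (0.01, adjusted p = 0.9712). Of the other genes in that span, Gm49395 had 0 counts and the antisense Gm10734 had 34 counts over all 14 libraries.

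Itga2, which encodes the alpha chain of the other main collagen receptor with beta 1, is the neighbour of Itga1 on chromosome 13 (114833081 to 114932100). It was at 25.7, 25.4 and 24.3 CPM in KO and at 21.1, 23.3 and 23.6 CPM in WT. In DMSO it was at 25.0, 27.9, 39.1 and 34.7 CPM and in EPZ at 26.3, 34.9, 30.8 and 34.6 CPM. The KO libraries were the higher ones by a narrow margin and the EPZ and DMSO libraries overlapped. Neither log2 fold change passed the test, at 0.16 in KO (adjusted p = 0.1838) and 0.02 in EPZ (adjusted p = 0.947).

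Since these neighbouring collagen receptor genes share strand and partner and differed in their response, the 250 bases before each start site are shown, from RefSeq on GRCm38.p6 (the mm10 build), 5' to 3' on the minus strand, at chr13:115101965-115102214 for Itga1 and chr13:114932101-114932350 for Itga2. Capitals mark CAGAC or its reverse complement GTCTG, a motif of SMAD proteins, which act in TGF-beta signalling.
Itga1: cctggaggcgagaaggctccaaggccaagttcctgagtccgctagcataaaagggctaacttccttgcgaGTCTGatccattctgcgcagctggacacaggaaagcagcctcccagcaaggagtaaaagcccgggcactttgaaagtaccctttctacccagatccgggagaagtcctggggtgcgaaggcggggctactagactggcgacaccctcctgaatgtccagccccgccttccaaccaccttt
Itga2: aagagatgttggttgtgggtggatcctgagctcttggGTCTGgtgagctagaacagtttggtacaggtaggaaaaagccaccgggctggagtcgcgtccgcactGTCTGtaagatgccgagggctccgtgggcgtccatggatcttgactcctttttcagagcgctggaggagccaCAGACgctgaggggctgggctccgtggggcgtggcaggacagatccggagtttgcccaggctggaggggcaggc
Both strands were searched for 5 motifs, and no matches overlapped in these windows. The SMAD letters occur once in the Itga1 window, with the first base at -180 from the start, and at -213, -146 and -74 in the Itga2 window. They were also found in 42.19% of all 32851 RefSeq promoters of this length. The letters of RUNX (TGTGGT, in 14.05% of promoters), KLF/Sp (GGGCGG, 32.74%), T-box (AGGTGT, 11.83%) and AP-1 (TGANTCA, 6.749%) are in neither window. RefSeq promoters were matched for 7 of the 10 chains, without Itgae, Itgal and Itgb2.

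Beta 1, the shared partner of alpha 1, alpha 2, alpha 4 and several other alpha chains, rose in both comparisons. Itgb1 (chromosome 8, 128685654 to 128733200) was measured at 727, 710 and 798 CPM in KO and at 489, 397 and 421 CPM in WT. The DMSO libraries held 285, 293, 256 and 285 CPM and the EPZ libraries 387, 402, 387 and 436 CPM. All KO libraries were above all WT libraries and all EPZ above all DMSO libraries, and the KO level was the highest of the groups.

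The log2 rise of Itgb1 was 0.78 ± 0.08 in KO (SE, adjusted p = 4.894e-06) and 0.53 ± 0.07 in EPZ (SE, adjusted p = 0.0003814), and the effects did not differ by the test (0.25, adjusted p = 0.1897). WT was above DMSO by 0.64 (adjusted p = 4.35e-06). With libraries of male transcripts alone, the EPZ value was 0.61 with an adjusted p of 0.05082.

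Among the 12 alpha chains known to pair with beta 1 (Itga1 to Itga11 and Itgav), Itga1 held 0.734%, 0.569% and 0.487% of summed CPM per kb in WT and 10.0%, 10.0% and 12.3% in KO. In DMSO it held 0.0684% ± 0.0386 and in EPZ 0.635% ± 0.228 (SD, n = 4 each). The summed level of the 12 alpha chains was 26.1 ± 1.19 CPM per kb in KO and 23.1 ± 1.07 in WT (SD, n = 3 each), 22.9 ± 2.51 in DMSO and 23.4 ± 1.71 in EPZ (SD, n = 4 each). Itgb1 exceeded that sum in every library, by 6.99-fold on average in KO, 4.65-fold in WT, 3.03-fold in DMSO and 4.23-fold in EPZ. Alpha 4, alpha 6 and alpha V together with alpha 2 made up most of the sum in each library.

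**Figure D3:**
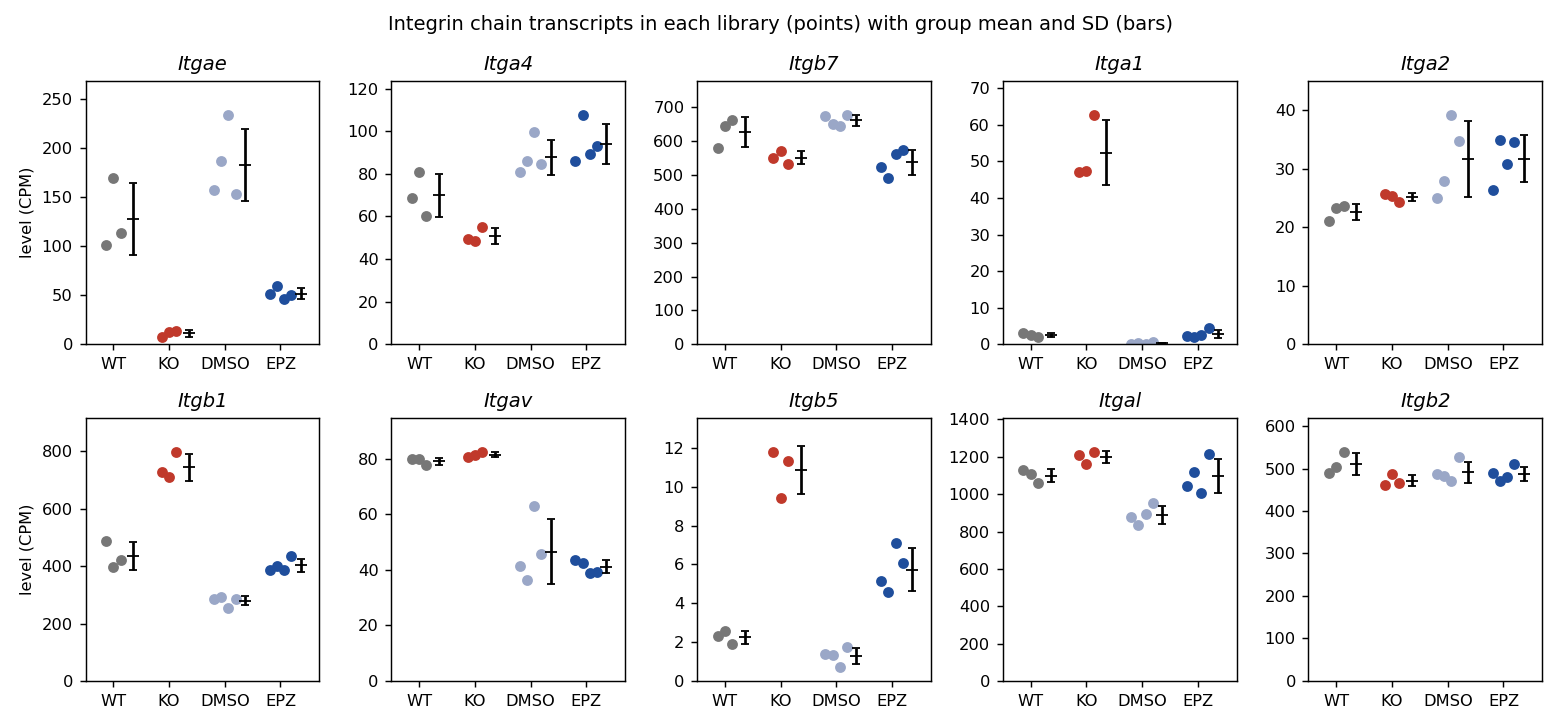
Level in CPM of the 10 integrin chains in each library (points), with the mean and SD of each group (bars), for 3 WT, 3 KO, 4 DMSO and 4 EPZ libraries. Itgae is lowest and Itga1, Itgb1 and Itgb5 are highest in KO, and EPZ lies on the same side of DMSO for these 4 chains.

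Beta 5 pairs with alpha V alone and binds vitronectin, and its gene is active in many adherent cells. Itgb5 (chromosome 16, 33829665 to 33949338) was low in all groups, at 11.8, 9.45 and 11.3 CPM in KO and 2.30, 2.57 and 1.91 CPM in WT. It was at 5.16, 4.57, 7.10 and 6.08 CPM in EPZ and at 1.39, 1.31, 0.736 and 1.72 CPM in DMSO. No library of a treated or KO group overlapped its control. The log2 rise was 2.32 ± 0.19 in KO (SE, adjusted p = 8.095e-07) and 2.102 ± 0.23 in EPZ (SE, adjusted p = 0.0001701), with a difference of 0.22 that did not pass the test (adjusted p = 0.7506). In pooled counts the ratios were 4.94 (95% interval 3.82 to 6.47, counting error only) and 4.26 (3.30 to 5.56).

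Its partner alpha V did not pass the test in either comparison. Itgav (chromosome 2, 83724397 to 83806916) was at 80.6, 81.2 and 82.4 CPM in KO and at 79.8, 79.9 and 77.7 CPM in WT (log2 fold change 0.05, adjusted p = 0.5602). In DMSO it was at 41.5, 36.2, 63.1 and 45.5 CPM and in EPZ at 43.5, 42.6, 39.0 and 39.4 CPM (-0.16, adjusted p = 0.4414). The KO and WT values were separated by less than 1 CPM at their closest, and the EPZ and DMSO values overlapped. A larger difference lay between the controls, with WT above DMSO by 0.78 on the log2 scale (adjusted p = 8.017e-05).

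LFA-1, the pair of alpha L and beta 2 that binds ICAM-1, was abundant, and 1 of its chains passed the test in 1 comparison. Itgal (chromosome 7, 127296260 to 127335138) was at 1212, 1162 and 1226 CPM in KO and at 1129, 1109 and 1061 CPM in WT. The DMSO libraries held 875, 836, 893 and 951 CPM and the EPZ libraries 1043, 1121, 1006 and 1214 CPM. The KO libraries lay above WT and the EPZ libraries above DMSO. The log2 rise in EPZ was 0.31 ± 0.07 (SE, adjusted p = 0.01439), which with libraries of male transcripts alone became 0.27 (adjusted p = 0.3559). In KO the log2 fold change was 0.13 (adjusted p = 0.09209), and it was called when genes under 10 CPM were left out (0.16, adjusted p = 0.04213).

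Itgb2 (chromosome 10, 77530252 to 77565708) was at 462, 487 and 465 CPM in KO and at 490, 504 and 539 CPM in WT. In DMSO it ran from 471 to 528 CPM and in EPZ from 471 to 510 CPM. The KO libraries were the lower ones and the EPZ and DMSO libraries overlapped. Its log2 fold changes of -0.11 (adjusted p = 0.1593) and -0.01 (adjusted p = 0.9333) did not pass the test.

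All 10 chains had KO and WT libraries that did not overlap, where 51.2% of all genes tested did so, and 6 had EPZ and DMSO libraries that did not, against 24.2% of genes. In the difference of the effects 2 of the 10 passed (Itgae and Itga4), both lower, where 7.6% of all genes were called, 3.29% higher and 4.31% lower, and Itgae alone reached a 2-fold difference, against 2.1% of genes. Between the control groups, 8 of the 10 were called, 5 higher in WT (Itga1, Itgb1, Itgal, Itgb5, Itgav) and 3 lower (Itgae, Itga2, Itga4), against 50.5% of all genes, 25.7% higher and 24.8% lower. Itga1 alone of the 10 was called with at least a 2-fold difference there, against 9.37% of genes, and 6 had WT and DMSO libraries that did not overlap, against 49.5%. The Itgb5 call there (0.69, adjusted p = 0.04091) was lost with a term for sex and without WT 1, WT 2, DMSO 1, DMSO 2, DMSO 3, EPZ 1 or EPZ 4 (adjusted p between 0.05518 and 0.0991), and the Itga4 call without WT 3 (adjusted p = 0.09298). The WT and DMSO libraries also enter the other comparisons, so these calls are not independent of them.

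The ratio of an alpha to a beta chain within a library does not depend on how libraries are scaled, and 8 known pairs were compared in both experiments by two-sided exact permutation, with adjustment over the 16 tests. The permutation took no account of the animal, although DMSO and EPZ libraries with the same number came from the same animal. The smallest p is 0.1 for 3 against 3 libraries and 0.02857 for 4 against 4. All 8 EPZ ratios were at that smallest p, which adjustment over the 16 tests took to 0.05714. No ratio of either comparison could therefore pass at 0.05 after adjustment, and none did (adjusted p = 0.1067 at the lowest in KO). The adjusted p thus cannot tell whether a ratio changed. The ratio of Itgae to Itgb7 counts was 0.0130, 0.0219 and 0.0258 in KO and 0.175, 0.264 and 0.171 in WT, a mean fall of 10.3-fold (exact permutation p = 0.1). In EPZ it was 0.0969, 0.120, 0.0826 and 0.0875 and in DMSO 0.233, 0.288, 0.361 and 0.227, a mean fall of 2.84-fold (exact permutation p = 0.02857).

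The ratio of Itga1 to Itgb1 was higher by 11.8-fold in KO and 6.17-fold in EPZ, since both chains moved the same way and Itga1 moved further. The ratio of Itgav to Itgb5 was lower by 4.59-fold and 4.92-fold. Itga4 to Itgb1 was lower by 2.34-fold in KO and 1.35-fold in EPZ, and Itgal to Itgb2 higher by 1.18-fold and 1.24-fold. Itga2 and Itgav were each lower relative to Itgb1, by 1.55-fold and 1.67-fold in KO and by 1.43-fold and 1.60-fold in EPZ. Itga4 to Itgb7 was the 1 pair whose ratio differed in sign, with a log2 difference of -0.26 in KO, where the groups overlapped (exact permutation p = 0.2), and 0.40 in EPZ, where they did not (exact permutation p = 0.02857).

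**Figure D4:**
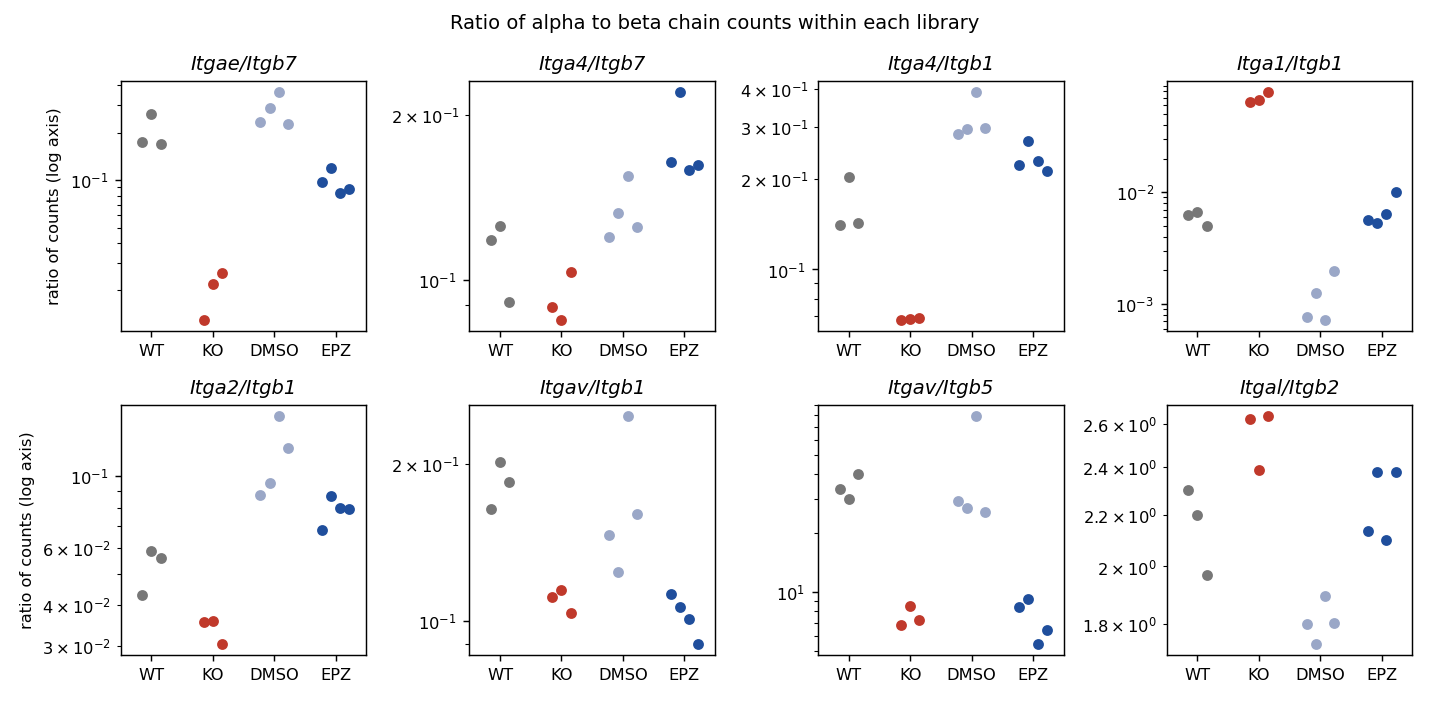
Ratio of alpha chain to beta chain counts within each library for 8 known pairs, on log axes, with 1 point per library. The Itgae to Itgb7 ratio is lower and the Itga1 to Itgb1 ratio higher in KO than in WT and in EPZ than in DMSO, without overlap.

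Of the 16 other integrin chain genes, 10 were tested in KO against WT, with 5 higher and none lower, and 11 in EPZ against DMSO, with 4 higher and none lower. Of all genes tested, 20.3% were higher in KO and 11.9% in EPZ. Itgad and Itgam in KO against WT, and Itga9 and Itgam in EPZ against DMSO, were too low in the controls to pass the filter without the KO or EPZ libraries. The filter thus left little room for a lower call of these chains, and the tallies of higher and lower were partly set by it. Itga2b passed through WT in the same way and was not called. The EPZ count was 2 without DMSO 1, DMSO 2 or DMSO 4, 1 without EPZ 1 or EPZ 2, where Itga9 was no longer tested, and 0 with libraries of male transcripts alone. The median log2 fold change of those tested was 0.52 in KO and 0.03 in EPZ, against -0.01 over all genes in each. Itgax (CD11c), Itgad (CD11d) and Itgam (CD11b) are further alpha partners of beta 2 and are best known from myeloid and natural killer cells. Itgax was at 33.9, 26.3 and 36.7 CPM in KO and at 7.62, 6.97 and 9.49 CPM in WT (log2 fold change 1.93 ± 0.15, SE, adjusted p = 5.724e-07). In EPZ and DMSO it overlapped, at 4.74 to 6.08 and 3.52 to 6.74 CPM (-0.04, adjusted p = 0.9129).

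Itgad was at 5.07, 4.22 and 6.94 CPM in KO and at 0.484, 1.28 and 0.825 CPM in WT (2.68 ± 0.31, SE, adjusted p = 1.985e-05). It was at 0.904 to 2.09 CPM in EPZ and 0.656 to 0.981 in DMSO (0.99 ± 0.28, SE, adjusted p = 0.03041), a call lost without DMSO 1, DMSO 2, DMSO 4, EPZ 1 or EPZ 2 (adjusted p between 0.06459 and 0.09529). Itgam was at 5.58, 2.83 and 5.94 CPM in KO and at 0.242, 1.47 and 0.722 CPM in WT (2.61 ± 0.43, SE, adjusted p = 0.0003406). In EPZ it was at 0.977 to 1.76 CPM and in DMSO at 0.344 to 0.820 CPM (1.06 ± 0.33, SE, adjusted p = 0.04426), a call lost with DESeq2 (adjusted p = 0.07115) and without any 1 of the 8 libraries (adjusted p between 0.05132 and 0.1255). KO was the highest group for each of these 3 chains.

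Itgax and Itgam are also on the list of myeloid markers (Lyz2, Csf1r, Cd68, Adgre1, Cd14, Itgam, Itgax, Flt3), whose summed level was 36.1 to 52.1 CPM in KO, 13.0 to 16.9 in WT, 7.70 to 12.2 in DMSO and 10.2 to 11.1 in EPZ, with Itgax the highest member in each group. Of the 8 markers, 3 were tested in KO against WT, and the 2 that were higher are Itgax and Itgam themselves, while Cd68 was not called (-0.07, adjusted p = 0.7934). Cd14, too low to be tested, had 37 counts in KO (0.634 to 1.90 CPM) and 1 in WT. Csf1r was at 0 in KO, DMSO and EPZ, and Lyz2 at 0 in WT and DMSO. Markers of natural killer cells or ILC1 (Ncr1, Klrb1c, Klra8, Klra4, Eomes, Tyrobp, Fcer1g), types in which CD49a and CD49b are also found, summed to 413 to 491 CPM in KO, 230 to 316 in WT, 126 to 170 in DMSO and 226 to 282 in EPZ. The highest was Eomes, which CD8 T cells also express. All 5 tested were higher in KO and 3 of 4 tested were higher in EPZ. Ncr1 (164 counts in KO, 0 in WT) and Tyrobp (330 in KO, 28 in WT) passed the filter on low counts through KO. For these genes a lower call in KO was not possible, so that tally was partly set by the filter. For each marker list here, the shares to compare are 20.3% of all genes tested higher in KO and 11.9% in EPZ. Ncr1 was at 0 in WT and DMSO, and Klra8 was at 0 in KO, WT and EPZ. Markers of mast cells or basophils summed to 101 to 135 CPM in KO, 15.9 to 20.7 in WT, 15.7 to 26.6 in DMSO and 49.8 to 67.8 in EPZ, with Kit the highest. All 3 of these 5 markers that were tested rose in KO: Kit by 2.69, Cpa3 by 3.56 (from 0.566 to 6.11 CPM, adjusted p = 4.095e-06) and Mcpt8 by 5.56 (from 0.167 to 10.5 CPM, adjusted p = 9.585e-08). Cpa3 and Mcpt8 were likewise too low in WT to be tested without the KO libraries. In EPZ Kit, the 1 marker tested, rose by 1.66 (adjusted p = 7.417e-05), and Ms4a2 was at 0 in all groups. The part of these cell types in the integrin results was not tested.

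Of the partners of beta 1, Itga3, a laminin receptor chain, rose in both comparisons, from 2.75 to 6.06 CPM in KO (1.05 ± 0.20, SE, adjusted p = 0.0009682) and from 2.70 to 6.13 CPM in EPZ (1.14 ± 0.17, SE, adjusted p = 0.001128). Itga5, the main fibronectin receptor chain, rose in KO from 6.07 to 10.1 CPM (0.72 ± 0.17, SE, adjusted p = 0.004893) and was at 4.95 in EPZ and 4.91 CPM in DMSO (0.03, adjusted p = 0.9169). Itga9 rose in EPZ from 0.269 to 0.954 CPM (1.79 ± 0.40, SE, adjusted p = 0.009928), and its log2 fold change in KO was 0.31 (adjusted p = 0.5164). It had 14 counts in DMSO and 63 in EPZ, so the size of its rise rests on a very low DMSO level. The KO and EPZ effects on Itga5 were not shown to differ (0.68, adjusted p = 0.1383). Itga6, at 43.9 to 51.9 CPM in the group means, and the low Itga7 did not pass the test in either comparison (adjusted p = 0.3756 and 0.7859 for Itga6, 0.8875 and 0.4017 for Itga7), nor did Itga10 in EPZ (adjusted p = 0.4184).

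Itgb3, known as the platelet partner of Itga2b and also a partner of alpha V, was the most abundant of the other chains. It was at 207, 185 and 210 CPM in KO and 163, 208 and 169 CPM in WT (0.17, adjusted p = 0.1529), which became a call without WT 2 (adjusted p = 0.006992). In DMSO it was at 438, 497, 385 and 429 CPM and in EPZ at 383, 417, 434 and 352 CPM (-0.14, adjusted p = 0.2991). The groups overlapped in both comparisons, and the levels of DMSO and EPZ were above those of KO and WT. WT was below DMSO by 1.28 on the log2 scale (adjusted p = 8.654e-08). Its platelet partner Itga2b was at 1.06 CPM in KO and 1.87 in WT (-0.80, adjusted p = 0.05858, or 0.0244 without KO 3). Of the other platelet markers, Gp9 was at 0 in all groups. Pf4 had 20 counts in EPZ (up to 0.977 CPM in 1 library), 3 in WT and 0 in KO and DMSO, and Ppbp and Gp1ba had at most 3 counts in any group. Itga11, Itgb6 and Itgb8 had 0 counts in every library.

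**Figure D5:**
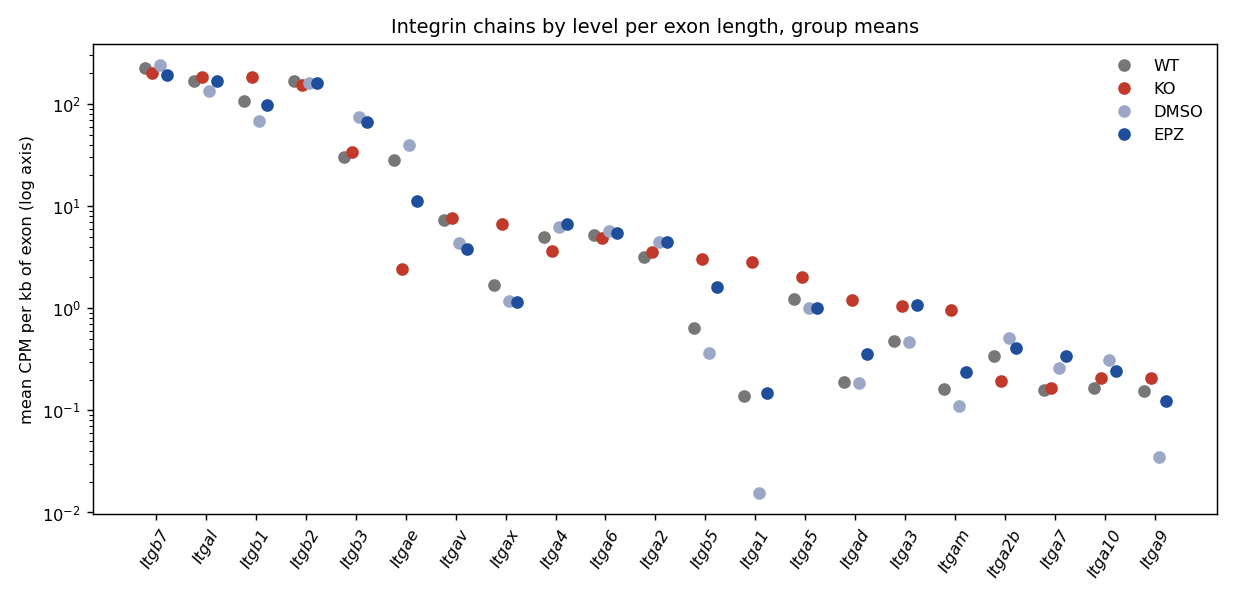
Mean CPM per kb of exon, on a log axis, of integrin chains in WT, KO, DMSO and EPZ, ordered by level, for the 21 chains above 0.1 CPM per kb in some group. Itgb7, Itgal, Itgb1 and Itgb2 lead in KO, WT and EPZ, while in DMSO Itgb3 (74.1 CPM per kb) stands above Itgb1 (68.5), and Itgae and Itga1 are the chains with the widest spread between groups.

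Of a list of 40 genes that act on integrins, 34 were tested in KO against WT, with 5 higher and 15 lower, and 35 in EPZ against DMSO, with 3 higher and 9 lower. The shares over all genes tested were 20.3% higher and 20.2% lower in KO, and 11.9% higher and 8.31% lower in EPZ. Their median log2 fold change was -0.13 in KO and -0.08 in EPZ. Fyb (ADAP), an adaptor that links the T cell receptor to LFA-1 activation, fell from 335 ± 6.00 to 134 ± 3.45 CPM in KO (SD, n = 3 each; log2 fold change -1.32, adjusted p = 3.823e-09). It fell from 400 ± 10.5 to 216 ± 15.6 CPM in EPZ (SD, n = 4 each; -0.89, adjusted p = 1.128e-05).

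Cyth1 (cytohesin-1), which binds the beta 2 tail, fell by 1.41 in KO (adjusted p = 1.185e-08), and Cytip, a binding partner of cytohesin-1, fell by 0.87 (adjusted p = 9.779e-08). Rasgrp2, an activator of the small GTPase Rap1, fell by 0.76 in EPZ (adjusted p = 7.417e-05), and Cd226, a receptor associated with LFA-1, fell by 0.79 (adjusted p = 0.0001156). These 4 genes fell in the other comparison as well. In KO Rasgrp2 went from 261 to 99.3 CPM and Cd226 from 78.5 to 38.4 CPM. In EPZ Cyth1 went from 214 to 152 CPM and Cytip from 471 to 338 CPM. Both of these EPZ calls were lost with libraries of male transcripts alone (adjusted p = 0.1068 and 0.2109). Cd9, a tetraspanin that associates with integrins, rose from 32.1 to 101 CPM in KO (1.64, adjusted p = 1.558e-08) and from 18.2 to 40.9 CPM in EPZ (1.16, adjusted p = 0.0001043).

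Transcripts of integrin ligands were counted as well. Of 21 ligand genes, 9 were tested in KO against WT, with 5 higher and 1 lower, and 8 in EPZ against DMSO, with 3 higher and 1 lower. Over all genes tested 20.3% were higher and 20.2% lower in KO, and 11.9% and 8.31% in EPZ. Cdh1, which encodes E-cadherin, the ligand of CD103, rose in both comparisons, in which Itgae fell. It went from 41.7 ± 4.92 to 91.3 ± 4.28 CPM in KO (SD, n = 3 each; log2 fold change 1.12, adjusted p = 3.934e-07) and from 17.6 ± 2.04 to 35.1 ± 7.37 CPM in EPZ (SD, n = 4 each; 0.99, adjusted p = 0.0008945). Epcam, an epithelial marker, rose with it, from 1.37 to 23.8 CPM in KO (3.92, adjusted p = 1.495e-08) and from 0.675 to 3.53 CPM in EPZ (2.27, adjusted p = 0.0003895). Of the 5 markers of stroma or epithelium (Epcam, Cdh1, Col1a1, Col3a1, Pecam1), 3 were tested, with Epcam and Cdh1 higher and Pecam1 lower in both comparisons, and Col3a1 was at 0 in all groups. Their summed level was 154 to 169 CPM in KO, 112 to 125 in WT, 105 to 125 in DMSO and 102 to 110 in EPZ, and its part in the Cdh1 result was not tested.

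Spp1 (osteopontin, a ligand of alpha V integrins and alpha 4 beta 1) rose by 5.74 in KO (adjusted p = 6.432e-10) and 1.75 in EPZ (adjusted p = 0.002953) on the log2 scale. Sema7a, a ligand of alpha 1 beta 1, rose by 1.88 in KO (adjusted p = 2.406e-05) and was at 1.53 CPM in EPZ with 0.514 in DMSO (1.499, adjusted p = 0.05584). That EPZ value passed in the fit blocked by animal (adjusted p = 0.03369) and with DESeq2 (adjusted p = 0.02381). Col18a1 (6.16, adjusted p = 4.716e-08) and Tgfb1 (0.40, adjusted p = 0.0005609) rose in KO, and Lama5 in EPZ (0.92, adjusted p = 0.01623). Col18a1 had 4 counts in WT (0.136 CPM) and 329 in KO (9.38 CPM), so the size of its rise rests on a very low WT level. Lama5 in KO (0.36, adjusted p = 0.07781, or 0.01063 without WT 2) and Tgfb1 in EPZ (-0.05, adjusted p = 0.733) did not pass. Lrrc32 (GARP), which holds latent TGF-beta for release by alpha V integrins, fell by 1.53 in KO (adjusted p = 4.024e-06) and 0.77 in EPZ (adjusted p = 0.004971). Icam1, the ligand of LFA-1, was at 56.0 CPM in KO, 58.8 in WT, 57.3 in EPZ and 60.3 in DMSO, and neither Icam1 nor Icam2 was called.

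TGF-beta is known to induce CD103 and Runx3 to favour it in CD8 T cells. Tgfbr1 was not called in either comparison, and Tgfbr2 rose by 0.24 in KO (adjusted p = 0.02846), which did not pass when KO 1, KO 3, WT 2 or WT 3 was left out (adjusted p between 0.06285 and 0.1156), and was not called in EPZ. Smad3 fell by 0.58 in KO (adjusted p = 1.82e-05) and by 0.25 in EPZ (adjusted p = 0.03025), the second call being lost without DMSO 2, DMSO 4, EPZ 1, EPZ 2 or EPZ 3 (adjusted p between 0.05408 and 0.08214). Runx3 fell by 0.29 in KO (adjusted p = 0.005206) and by 0.44 in EPZ (adjusted p = 0.004959). Neither Ski nor Smad7 was called, although Smad7 in EPZ passed in the fit blocked by animal (adjusted p = 0.04011). Whether these genes had a part in the fall of Itgae was not tested.

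Of a list of 24 tissue residency genes that includes Itgae and Itga1, 23 were tested, with 9 higher and 9 lower in KO and 7 higher and 6 lower in EPZ, beside 20.3% and 20.2% of all genes in KO and 11.9% and 8.31% in EPZ. Genes usually raised in resident cells lay on both sides. Zfp683 (Hobit) fell with Itgae, by 2.47 in KO (adjusted p = 2.71e-07) and 1.37 in EPZ (adjusted p = 0.0001701). Xcl1 rose with Itga1, by 3.78 in KO (adjusted p = 6.432e-10) and 1.28 in EPZ (adjusted p = 0.0004755). The egress receptor gene S1pr1 fell by 1.32 in KO (adjusted p = 2.148e-07), and in EPZ, where it overlapped DMSO at 219 to 345 against 335 to 509 CPM, it was not called (-0.43, adjusted p = 0.06911). Cd69, the other common marker of resident cells, was not called in either comparison. The genes named here other than Itgae and Itga1 were chosen after their values were seen.

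Over the 14 libraries, the genes whose mean-centred log2 CPM lay nearest to Itgae among 12638 others were Cd6, Gm8369, Fam71b, Gm43004 and Slpi, with root mean square differences of 0.445, 0.453, 0.488, 0.506 and 0.514. Cd6 had log2 fold changes of -3.24 in KO and -1.06 in EPZ. Nearest to Itga1 were C77080, Fcer1g, Ppp2r2c, Dab2ip and Gzmc, at 0.531, 0.736, 0.759, 0.796 and 0.826. C77080 had log2 fold changes of 4.67 in KO and 4.43 in EPZ. Gzmc has close copies among the granzyme genes, so that its count is uncertain.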

How the data were processed

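Polyadenylated RNA of 14 libraries was sequenced from stranded libraries, per the labels' protocols. The deposited table holds raw counts of reads for each Ensembl gene, not normalized, and the submitters' processing notes name TopHat2 2.1, Bowtie 1.1, HTSeq and mm10. The strand setting of the counting is not given in the sources used here. Of the lines, 1 named no gene, had 0 counts and was dropped.

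All tests across genes used edgeR 4.0.16 under R 4.3.3 (TMM, filterByExpr at its count minimum of 10 and total of 15, quasi-likelihood F-test, Benjamini-Hochberg adjusted p under 0.05), within each experiment, and over all 14 libraries for the difference of the effects and for WT against DMSO. A gene can pass filterByExpr through the group where it is high, and such a gene can hardly be called in the other direction. The standard error is the log2 fold change divided by the root of F. CPM use the TMM factors of all 14 libraries, and levels per kb use the union of exons. That union exceeds the principal transcript for Itga1 (18599 against 10967 bases) and Itga4 (13978 against 9767), and less so for Itgb7 (2770 against 2683). Levels per kb of these alpha chains, and their shares, may thus be too low. Ratios had 0.5 counts added to each chain for the log2 tests. Intervals of count ratios cover counting error only, and reads carry no molecular identifiers. Between replicates, chi-square over its degrees of freedom was 2.05 to 18.1, so none was a copy. DESeq2 1.42.0 was an alternative.

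DMSO and EPZ libraries with the same number came from the same animal, per the library names. Their deviations from the group means correlated at -0.11 to 0.54, above 0.1 in 2 of 4 pairs, and blocking by animal was tried as an alternative. The integrins and gene lists were chosen with earlier results of these data known. Named genes were the 10 chains, every other chain tested, the 4 regulators with the smallest adjusted p per comparison, ligands tested, genes overlapping a chain, and the 5 genes nearest to Itgae and to Itga1. The TGF-beta genes and tissue residency genes were added to these.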

Additional observations from a re-analysis of the deposited data

Results flagged for a closer look

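Effects of KO over WT and of EPZ over DMSO differed, by the test of the difference over all 14 libraries, for 4 integrin chains. The difference was -1.66 on the log2 scale for Itgae (adjusted p = 0.00173), which fell in both comparisons and further in KO. It was -0.55 for Itga4 (adjusted p = 0.02866), which fell in KO and not by the test in EPZ. It was 1.99 for Itgax (adjusted p = 0.0001708), which rose in KO, with overlapping EPZ and DMSO libraries, and 1.70 for Itgad (adjusted p = 0.0357), which rose in both and further in KO. The Itgad difference was lost without KO 1, KO 3, WT 1, WT 3, DMSO 1, DMSO 3 or DMSO 4 (adjusted p between 0.05286 and 0.0998). Among the 10 chains in DMSO and in EPZ, 20 groups of 4 libraries in all, no library stood apart from the other 3 by Dixon's test.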

How the results depend on the processing

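The calls of Itgae, Itga1 and Itgb5 in KO against WT and in EPZ against DMSO held under every alternative that tested them, as did those of Itgb1 and Itga4 in KO, and no sign of a called value turned. Of the 10 chains, 5 or 6 were called in KO against WT under all alternatives, and 6 in EPZ against DMSO, except 4 when genes under 10 CPM, Itga1 and Itgb5 among them, were left out and 3 (Itgae, Itga1, Itgb5) with libraries of male transcripts alone, a restriction chosen after seeing the data. That restriction left 2 libraries per group, and 247 genes in all were then called, against 2463. The EPZ calls of Itga3 (adjusted p = 0.05657), Cdh1 (0.08852) and Runx3 (0.05773) were lost there too. In the difference of the effects, leaving out 1 library gave 1 or 2 chains, with Itgae called each time. In WT against DMSO 6 to 8 were called. Of the 16 chain ratios, 15 did not overlap, and 15 or 16 under the alternatives. Ratios of other gene pairs were not counted, so this number has no share to be set against. Of single genes tested, 51.2% did not overlap in KO against WT and 24.2% in EPZ against DMSO. Several of the pairs also share Itgb1, so the ratios are not independent.

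The KO and WT libraries share only a number. Their same-numbered correlations were -0.15 to 0.05, and no library of 3 pairs correlated best with its own number. With that number as a replicate block 5 chains were called, without Itgb7 (adjusted p = 0.07901). With the animal as a replicate block 6 were called in EPZ against DMSO, and no call on the 10 chains changed. Low depth limits Itga1 in DMSO (15 counts) and Itgb5 in WT (70 counts) and DMSO (71 counts).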
